A study of Mus musculus with 6 samples.

Results

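The AMPA-type glutamate receptor was examined at the level of its mRNAs in the medial prefrontal cortex (mPFC) of mice that overexpress *Shank3*. The genes were 10, chosen by name, namely the subunits *Gria1* to *Gria4*, the transmembrane AMPA receptor regulatory proteins (TARPs) *Cacng2*, *Cacng3* and *Cacng8*, the cornichon homologs *Cnih2* and *Cnih3*, and *Shisa9*. All 10 were found once each among the 18254 genes of the deposited table, and all 10 were among the 16714 genes tested, which are those whose mean over the libraries reached 5 normalized counts. The libraries came from the mPFC of male mice aged 10 to 12 weeks in the C57BL/6J background, 3 from *EGFP-Shank3* transgenic mice (*Shank3* TG) and 3 from their wild-type (WT) littermates. Each library held RNA pooled from 2 mice of one genotype, so that the spread between libraries is a spread between pools. The transgene codes for a tagged Shank3 protein, and its promoter is not given in the sources used here. The libraries carry the numbers 1 to 3 in each genotype (TG-1, TG-2 and TG-3 beside WT-1, WT-2 and WT-3). The comparison asks whether excess *Shank3*, a scaffold of the excitatory postsynapse, goes along with other mRNA levels of the receptor that this scaffold helps to hold in place.

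AMPA receptors carry most of the fast excitatory current at cortical synapses and are assembled as tetramers of the GluA1 to GluA4 proteins, which *Gria1* to *Gria4* encode. TARPs, cornichons and Shisa9 are auxiliary membrane proteins that bind the receptor, help it leave the endoplasmic reticulum or reach the synapse, and alter the time course of its current. TARPs attach the receptor to PSD-95, and PSD-95 is linked to Shank3 through SAPAP proteins.

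All 4 subunit genes encode glutamine at one codon of the channel pore, and in *Gria2* this codon is edited in the RNA. Editing changes glutamine to arginine in GluA2 and makes the channel nearly impermeable to calcium, so the proportion of *Gria2* among the subunits is of interest below. This codon is shown because it is what sets GluA2 apart, and it stands in capitals within the 10 codons around it, as the GENCODE M21 transcripts give them on the coding strand from 5′ to 3′.
*Gria1*: ttcatgCAGcaaggatgtgacatttccccc
*Gria2*: tttatgCAGcaaggatgcgatatttcgcca
*Gria3*: tttatgCAGcaaggatgtgatatttctcca
*Gria4*: tttatgCAAcaaggatgtgacatttcaccc
In GRCm38 the *Gria2* stretch is at chr3:80706890-80706919 on the minus strand, in exon 11 of the transcript used, and its codon is number 607 from the start codon. The *Gria1* stretch is at chr11:57243088-57243117 on the plus strand in exon 11, the *Gria3* stretch at chrX:41610259-41610288 on the plus strand in exon 11, and the *Gria4* stretch at chr9:4464116-4464145 on the minus strand in exon 12. The deposited values count a gene as a whole, so neither editing nor the flip and flop exons can be read from them.

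The ends of the coding sequences are shown because they encode the tails that bind PDZ scaffolds, with the last 4 codons in capitals before the stop codon.
*Gria1*: gggatgcccttgggaGCCACAGGATTGtaa
*Gria2*: gtatatggcatcgagAGTGTTAAAATTtag
*Gria3*: gtgtatggaacagaaAGTGTTAAGATCtag
*Cacng2*: acagccaaccgccggACCACGCCCGTAtga
*Cacng3*: ccggccaacagacgtACCACGCCTGTCtga
*Cacng8*: acgctcaacaggaaaACCACGCCCGTGtag
Without the stop codon, these ends lie in GRCm38 at chr11:57327617-57327643 (plus strand), chr3:80689109-80689135 (minus), chrX:41672435-41672461 (plus), chr15:77995152-77995178 (minus), chr7:122768817-122768843 (plus) and chr7:3415576-3415602 (plus), in the order shown. The 3 TARPs end in the same 4 amino acids, the PSD-95 ligand, written with different synonymous bases. *Gria2* and *Gria3* share an ending that binds GRIP and PICK1, and *Gria1* ends in another one. Between any 2 of the 4 subunits, 68.3% to 72.4% of the aligned coding bases were identical. Of all 31-base words in the transcripts of a subunit, at most 0.815% occurred in another of the 10 genes, so few reads could be shared between subunits. The share was highest for *Cacng2* when all annotated genes were searched, at 6.45%, mostly with the antisense gene *A730060N03Rik* on the opposite strand. The library kit marks the strand, but the strand setting of the quantification is not given in the sources used here.

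Each library held from 28363967 to 29447717 normalized counts. *Shank3* itself had 7779 ± 862 normalized counts in WT (SD, n = 3) and 17594.5 ± 1351 in *Shank3* TG, with every TG library above every WT library. Its log2 fold change was 1.18 (SE 0.10), and its adjusted p in limma's test missed the threshold of 0.05 with the genotype alone, at 0.0643, and passed it, at 0.000437, with the library number as a block. The markers of cortical tissue were present in every library, with *Slc17a7*, the vesicular glutamate transporter of cortical excitatory neurons, at 39218 or more. The striatal marker *Drd2* was at 21.3 or less. Of the 6 choroid plexus and leptomeninges markers, *Folr1* was at 13.0 or less and *Col1a2* between 581 and 878. *Ttr* and *Slc6a13* were higher in the TG library at each number, with 22.9 to 445 and 216 to 371 in the TG libraries against 12.6 to 41.7 and 198 to 243 in the WT libraries. Their unadjusted p in limma's test was 0.0382 and 0.0485. The other 4 had log2 fold changes of 0.13 (*Dcn*), 0.09 (*Col1a2*), -0.07 (*Kl*) and -0.12 (*Folr1*) with none under 0.05, and the part of such tissue in the values below was not tested. In bulk tissue, fewer cells of a type and less RNA per cell cannot be told apart. The 6 oligodendrocyte markers summed to between 41007 and 53411 in the TG libraries and between 59417 and 69405 in the WT libraries, and their part in the values below was not tested. TG-2 stood apart in 3 of 4 olfactory bulb markers, with 149 normalized counts of *Eomes*, 386 of *Doc2g* and 170.0 of *Th*, against at most 30.6, 160 and 64.9 in the other libraries. Without TG-2, the median log2 fold change of the 10 genes was 0.08, against 0.06 with it.

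None of the 4 subunit genes passed the test, and their folds of *Shank3* TG over WT lay between 0.956 and 1.03. *Gria1*, whose protein is the subunit most tied to activity-dependent insertion at synapses, had 8535, 9753 and 8967 normalized counts in TG-1, TG-2 and TG-3 and 8269.6, 9407 and 8839.9 in WT-1, WT-2 and WT-3. The groups overlapped almost fully, and in both of them the library numbered 2 was the highest. The log2 fold change was 0.04 (SE 0.08). *Gria2*, which sets the calcium permeability of the receptor, had the highest normalized counts of the 10 genes before any correction for length, with 20405, 20437 and 22799.8 in the TG libraries against 18917, 22408 and 24072 in the WT libraries. WT held both the lowest and the highest library. The log2 fold change was -0.03 (SE 0.10). *Gria3*, which lies on the X chromosome and partners GluA2 in cortical neurons, had 10811, 10043 and 12247 in the TG libraries against 9279, 10507 and 12675 in the WT libraries. The lowest and highest libraries were again WT-1 and WT-3, and the log2 fold change was 0.04 (SE 0.13). *Gria4*, best known from interneurons and from development, had 3913.5, 3725 and 4008 in the TG libraries against 3948.5, 4173 and 4056 in the WT libraries. It was the steadiest of the 4 subunits, its TG-3 library lay above WT-1, and the log2 fold change was -0.06 (SE 0.07).

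Among the TARPs, *Cacng2* had the lowest and *Cacng8* the highest log2 fold change of the 10 genes, and none of the 3 passed the test. *Cacng2* encodes stargazin, the first known TARP, and had 2514.5, 2563.5 and 3496 normalized counts in the TG libraries against 2545, 2964 and 3836 in the WT libraries. The libraries numbered 3 were the highest of each genotype, and the TG library was below the WT library at each number, with log2 differences of -0.02, -0.21 and -0.13. The log2 fold change was -0.12 with an SE of 0.18 when the genotype alone was fitted and an SE of 0.06 with the number as a block, with unadjusted p-values in limma's test of 0.518 and 0.074. *Cacng3*, a TARP of cortical neurons, had 4149, 3849.8 and 4576 in the TG libraries against 3642, 4249.9 and 3927 in the WT libraries, which gave a log2 fold change of 0.09 (SE 0.09) with groups that overlapped. *Cacng8*, the TARP best known from the hippocampus, had 1560, 1547 and 1655 in the TG libraries against 1460.1, 1532.5 and 1409.9 in the WT libraries. It was the only one of the 10 genes in which every TG library was above every WT library, by a log2 fold change of 0.11 (SE 0.07). Among all tested genes, 2.91% had every TG library above every WT library, 3.12% had every TG library below, and 6.02% had groups without overlap in either direction. The exact two-sided permutation test gave *Cacng8* p = 0.1, the smallest that 3 libraries against 3 allow, and limma's unadjusted p was 0.163. *Slc17a7* had the same order, with 42302 to 45669 in the TG libraries against 39218 to 40001.5 in the WT libraries, and its part in the *Cacng8* value was not tested.

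The cornichon genes and *Shisa9* were slightly higher on average in *Shank3* TG, with groups that overlapped, and none passed the test. *Cnih2*, which slows the closing of AMPA receptors, had 3586, 3611 and 4278 normalized counts in the TG libraries against 3710, 3005.5 and 4006 in the WT libraries, which gave a log2 fold change of 0.10 (SE 0.12). WT-2 was the lowest library, and without it the log2 fold change was -0.02. *Cnih3*, its close relative, had 2072, 1957 and 2371.5 in the TG libraries against 1893.5, 1913 and 2199 in the WT libraries. It was higher in the TG library at each number, by 0.13, 0.03 and 0.11 on the log2 scale, and the groups overlapped because WT-3 was above TG-1 and TG-2. *Shisa9*, also called CKAMP44, which shapes short-term plasticity, had 1624, 1807 and 1836 in the TG libraries against 1727, 1619 and 1661 in the WT libraries. TG-1 lay within the WT range, and the log2 fold change was 0.07 (SE 0.08).

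**Figure D1:**
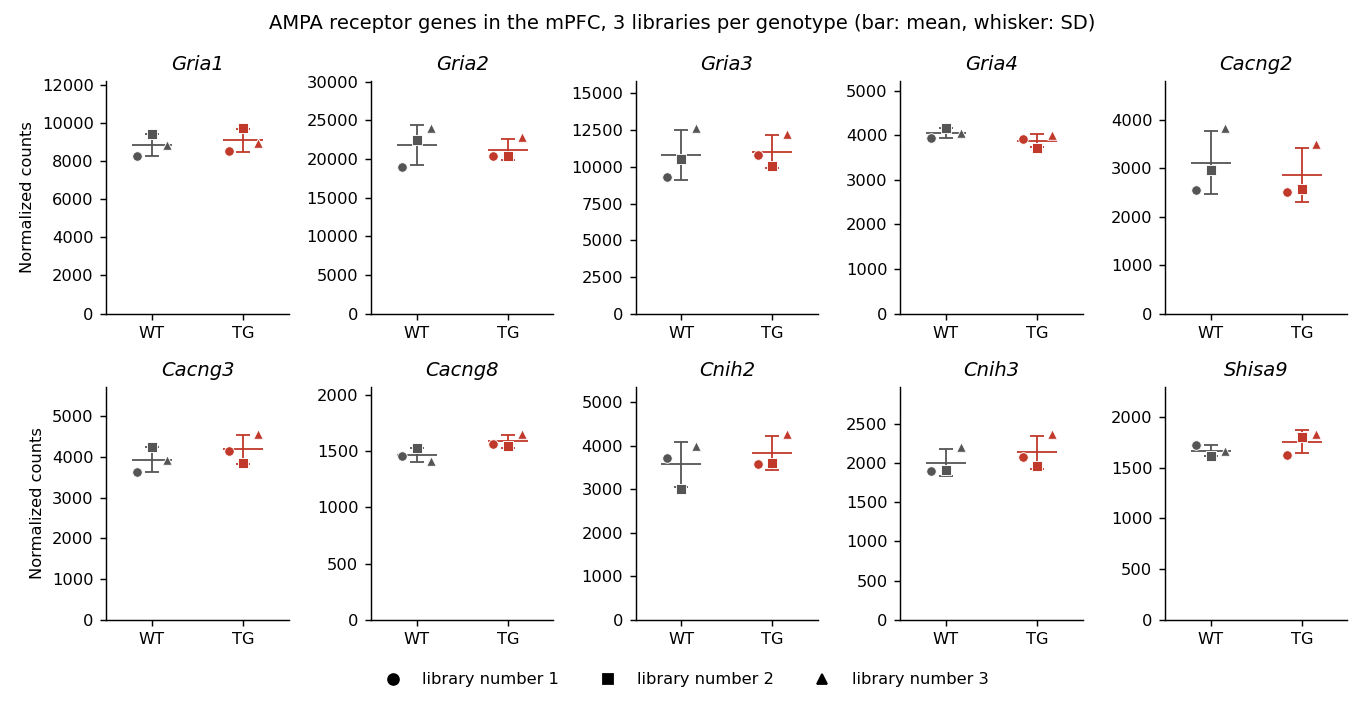
Normalized counts (y axis, from 0) of the 10 genes in the WT and *Shank3* TG libraries, with a symbol for each library number, a bar at the mean and whiskers of 1 SD (n = 3 pools). The groups overlap in 9 of the 10 panels, and in the *Cacng8* panel the TG libraries lie between 1547 and 1655 and the WT libraries between 1409.9 and 1532.5.

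Of the 10 genes, 0 had an adjusted p under 0.05 in limma's test over all 16714 genes (0% of them), and 0 had an unadjusted p under 0.05, as did 336 (2.01%) of all tested genes. With the library number as a block, the counts among the 10 were again 0 and 0, against 0.00598% and 4.98% of all tested genes. Differences were positive for 7 genes and negative for 3, with a median log2 fold change of 0.06, beside a median of -0.0037 for all tested genes. Left out in turn, TG-3 and WT-1 lowered this median to 0.016 and 0.013, and TG-1 raised it to 0.089. The median size of the difference was 0.08 for the 10 genes and 0.07 for all tested genes. A missed threshold does not show equal levels, and the 95% intervals give what remained possible. With the genotype alone they lay between folds of 0.9 and 1.17 for *Gria1*, 0.826 and 1.16 for *Gria2*, 0.835 and 1.26 for *Gria3*, and 0.858 and 1.065 for *Gria4*. The widest interval was that of *Cacng2*, from 0.692 to 1.22, and with the block it narrowed to between 0.838 and 1.01. The highest upper bound was a fold of 1.31 for *Cnih2* with the genotype alone and 1.2 for *Cacng3* with the block, and the fold of *Shank3* was 2.27.

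**Figure D2:**
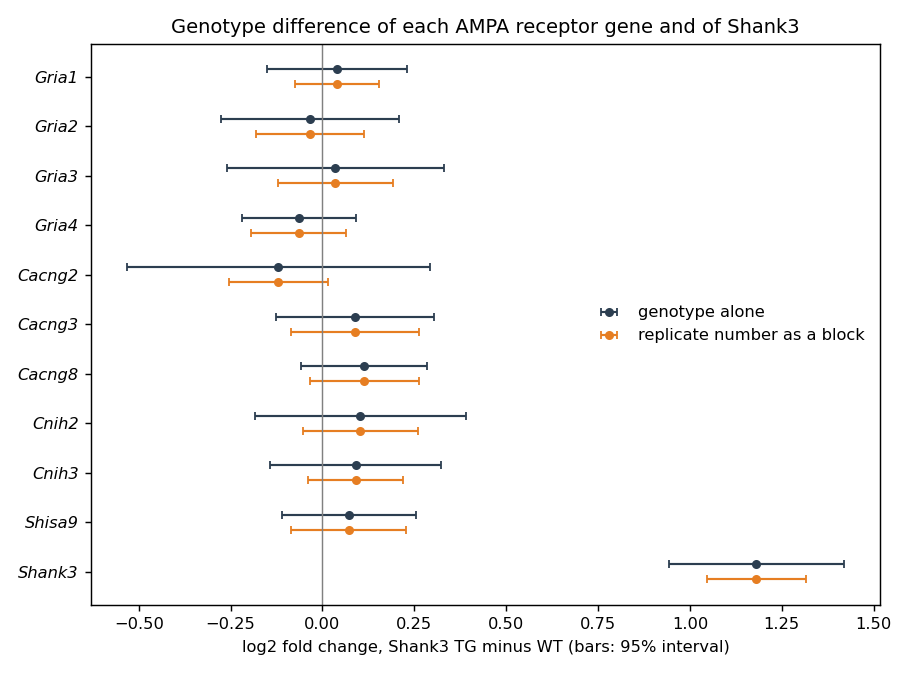
Log2 fold change of *Shank3* TG over WT (x axis) for each of the 10 genes and for *Shank3* (y axis), with 95% intervals from limma with the genotype alone (dark) and with the library number as a block (orange). The intervals of the 10 genes all include 0, and that of *Shank3* starts at 0.94 with the genotype alone.

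Differences between the library numbers were larger than those between the genotypes for several of these genes. The libraries TG-3 and WT-3 had more *Cacng2* than the other 4, with a mean of 3666 against 2647 normalized counts, a log2 difference of 0.47. *Gria3* was higher in them by 0.30, *Cnih2* by 0.26, *Cnih3* by 0.22 and *Gria2* by 0.19. *Gria1* and *Cacng8* differed by -0.01 and 0.003 and did not share this pattern. The median of this difference was 0.14 for the 10 genes, beside -0.0024 for all tested genes, whose differences went both ways. The median of its size was 0.14 for the 10 genes and 0.17 for all tested genes. Without both libraries numbered 3, the median log2 fold change between the genotypes was 0.04. *Gria4* and *Cacng2* were lower in *Shank3* TG at each of the 3 numbers, as were 13.3% of all tested genes, and *Gria1*, *Cacng8* and *Cnih3* were higher at each number, as were 11.6%.

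**Figure D3:**
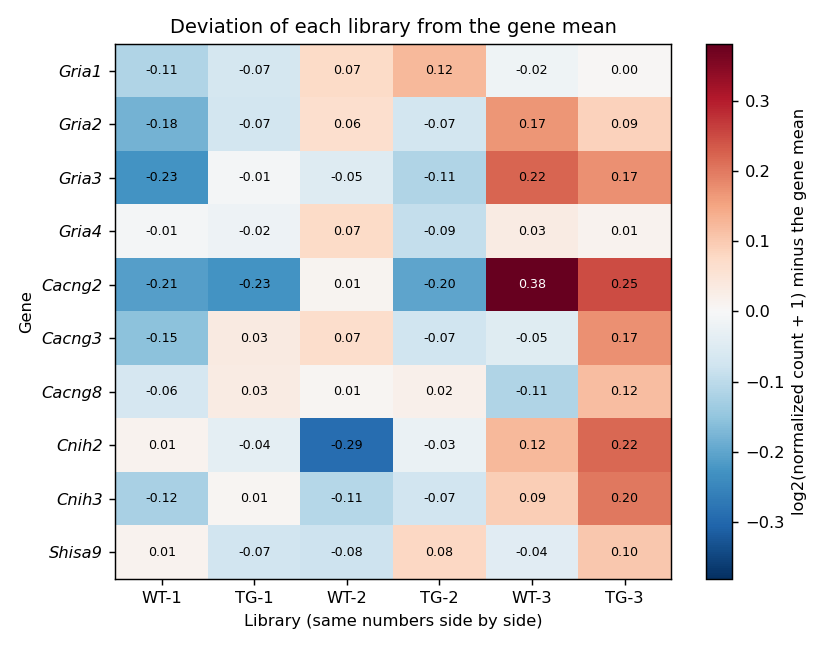
Deviation of log2(normalized count + 1) from the mean of each gene (rows) in each library (columns, with the same numbers side by side), red above and blue below the mean. *Cacng2* reaches 0.38 in WT-3 and 0.25 in TG-3 and is below its mean in WT-1, TG-1 and TG-2, while *Gria4* lies between -0.09 and 0.07.

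Ratios within a library do not move with its scale, and 9 of them were compared on values per kilobase of merged exons. The level of a ratio depends on the length used. With the longest coding transcript as the length, the mean *Gria1* to *Gria2* ratio over all libraries was 0.783 (0.687 to 0.892), against 1.08 with merged exons. For *Gria3* to *Gria2* the 2 means were 1.01 and 0.80. The *Gria1* to *Gria2* ratio was 1.08, 1.23 and 1.01 in TG-1, TG-2 and TG-3 and 1.125, 1.08 and 0.945 in WT-1, WT-2 and WT-3. The groups overlapped, and the libraries numbered 3 were the lowest of each genotype. The *Gria3* to *Gria2* ratio was 0.8355, 0.775 and 0.847 in the TG libraries against 0.774, 0.7395 and 0.830 in the WT libraries, higher in the TG library at each number by 0.11, 0.07 and 0.03 on the log2 scale. The *Gria4* to *Gria2* ratio was 0.452 ± 0.020 in the TG libraries against 0.463 ± 0.050 in the WT libraries (SD, n = 3). Among the 4 subunits, *Gria2* made up 29.6%, 28.97% and 30.4% in the TG libraries against 29.3%, 30.5% and 31.3% in the WT libraries. The groups overlapped, and WT-1 was below TG-1 and TG-3.

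The *Cacng8* to *Cacng2* ratio had the largest genotype difference of the 9 with all libraries included, with 1.46, 1.42 and 1.11 in the TG libraries against 1.35, 1.215 and 0.864 in the WT libraries. It was higher in the TG library at each number, by 0.11, 0.22 and 0.37 on the log2 scale, but the numbers differed more than the genotypes, and TG-3 lay below WT-1 and WT-2. The *Cacng3* to *Cacng2* ratio was also higher in each TG library than in the WT library of the same number, with 3.27, 2.98 and 2.60 in the TG libraries against 2.84, 2.845 and 2.03 in the WT libraries. Both ratios have *Cacng2* as their base and are therefore not separate results. The log2 difference was 0.23 for *Cacng8* to *Cacng2* and 0.21 for *Cacng3* to *Cacng2*. Without WT-3, which leaves TG-3 with no library of its number, it was 0.045 and 0.048, and without both libraries numbered 3 it was 0.17 and 0.14. The *Cnih2* to *Cnih3* ratio was 3.603 ± 0.12 in the TG libraries against 3.585 ± 0.40 in the WT libraries. Summed TARPs relative to summed subunits were 0.587 ± 0.033 in the TG libraries against 0.567 ± 0.016 in the WT libraries, and summed cornichons 0.774 ± 0.046 and 0.728 ± 0.106. With the longest coding transcript as the length, the means over all libraries were 0.431 for the TARPs and 0.542 for the cornichons, against 0.577 and 0.751. The exact two-sided permutation p-values of the 9 ratios lay between 0.2 and 0.9, and between 0.771 and 0.9 after adjustment over the 9, with 0.1 the smallest that the design allows.

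**Figure D4:**
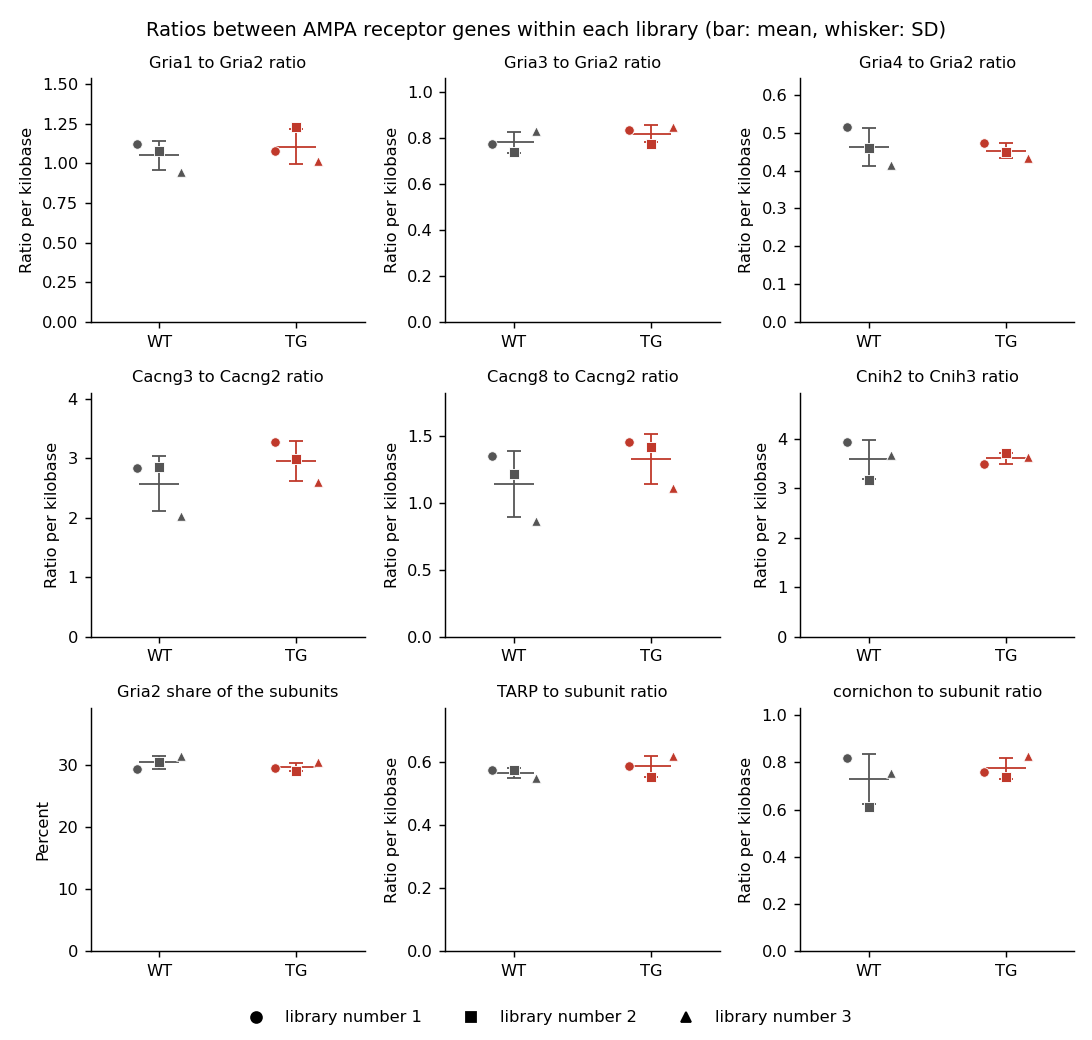
The 9 ratios (y axis, values per kilobase of merged exons, or percent for the *Gria2* share) in the WT and *Shank3* TG libraries, with a symbol for each library number, a bar at the mean and whiskers of 1 SD (n = 3 pools). The groups overlap in all 9 panels, and the ratios to *Cacng2* are lowest in the libraries numbered 3.

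Levels between genes were set side by side per kilobase of merged exons, over all 6 libraries. *Cnih2*, the shortest of the genes, had the highest level, 2702 ± 315 normalized counts per kilobase (SD, n = 6), and *Shisa9* the lowest, 327 ± 17.8. *Gria1* (1483 ± 90.7), *Cacng3* (1464 ± 119), *Gria2* (1383 ± 122.5) and *Gria3* (1108 ± 132) followed *Cnih2*, and in this order each overlapped its neighbour in range, except that *Cnih2* lay apart from *Gria1*. Below them came *Cnih3* (752 ± 68.2), *Cacng8* (651 ± 36.3), *Gria4* (629.8 ± 24.0) and *Cacng2* (542 ± 102), which overlapped one with the next. The order of the subunits depended on the length used, and so did the gap below *Cnih2*. With the longest coding transcript in place of merged exons, *Gria3* had 2105 and *Gria2* 2074 normalized counts per kilobase and both were above *Gria1* with 1616, because *Gria2* has 15548 merged exon bases against 10371 in its longest coding transcript and *Gria3* 9859 against 5192. With the longest coding transcript, *Cnih2*, at 2238 to 3185, overlapped *Gria3*, at 1787 to 2441. *Gria4* was the lowest of the 4 subunits with both lengths.

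None of the other genes of the pathway that were listed had an adjusted p under 0.05 in limma's test, with the genotype alone or with the block. Of 18 further auxiliary and associated proteins, 0 had an unadjusted p under 0.05 in limma's test with the genotype alone, a share near the 2.01% of all tested genes, with 10 differences above 0 and 8 below and a median log2 fold change of 0.02. *Gsg1l*, an auxiliary subunit singled out after its values were seen, was higher in the TG library at each number, with a log2 fold change of 0.14 (SE 0.12). Its unadjusted p in limma's test was 0.279 with the genotype alone and 0.0429 with the block, and its adjusted p with the block was 0.996. *Olfm1*, a secreted protein found in native receptor complexes, had a log2 fold change of -0.0018 (SE 0.11), *Frrs1l*, which acts in receptor assembly, of 0.01 (SE 0.07), *Nrn1* (neuritin) of 0.02 (SE 0.08) and *Shisa7* of -0.01 (SE 0.11). *Cacng5* and *Shisa8*, singled out after their values were seen, were highest in TG-2, with 371 and 129 normalized counts against at most 203 and 57.4 elsewhere. TG-2 is the library with the high olfactory bulb markers, and the part of those markers in these values was not tested. Of 12 trafficking and anchoring genes, 0 had an unadjusted p under 0.05 in limma's test with the genotype alone, again near the 2.01% of all tested genes, with 6 differences above 0 and 6 below. *Nptxr*, the neuronal pentraxin receptor that gathers AMPA receptors, had 42628, 36021.5 and 31257 in the TG libraries against 38760.4, 34403 and 22024 in the WT libraries. It was higher in the TG library at each number and lowest in the libraries numbered 3, with a log2 fold change of 0.24 (SE 0.21). In limma's test its unadjusted p was 0.298 with the genotype alone and 0.0259 with the block, where 4.98% of all tested genes were under 0.05, and its adjusted p with the block was 0.922. *Dlg4*, which encodes PSD-95, had a log2 fold change of 0.07 (SE 0.12), *Nsf*, which binds GluA2, of 0.02 (SE 0.07), and *Nptx1* of -0.03 (SE 0.09). The editing enzyme genes *Adarb1*, which edits the *Gria2* codon shown above, *Adar* and *Adarb2* had log2 fold changes of -0.03 (SE 0.08), 0.08 (SE 0.08) and 0.04 (SE 0.08).

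Across the 6 libraries the 10 genes were alike to different degrees. *Gria2* and *Gria3* had a Pearson r of 0.90, *Gria2* and *Cacng2* of 0.92, and *Gria4* and *Shisa9* of -0.53, with a median of 0.33 over the 45 pairs. These are descriptions over 6 points that share library scale and the difference between numbers. Outside the 10, the genes most like each subunit were *Tm6sf2* and *Slc25a51* for *Gria1* (r of 0.99 for both), *Dhx57* and *Elavl2* for *Gria2* (0.99 for both), *Zfp354c* and *Hoxd11* for *Gria3* (0.996 for both), and *Polh* and *App* for *Gria4* (0.98 for both). An r above 0.9 was found for 700 of the 16704 genes compared with *Gria3* and for 50 with *Gria4*. *Hoxd11* had at most 23.5 normalized counts in any library.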

How the data were processed

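RNA from the mPFC of 6 pools of mice was sequenced by the authors as stranded mRNA libraries. The deposited values are a signal of normalized read counts: the authors quantified transcripts with Salmon 0.9.1 on GRCm38 with GC bias correction, summed them to genes and divided by DESeq2 (1.19.11) size factors in R 3.6.0. They are not whole numbers, so reads and counting intervals were not recovered. The genes were matched to GENCODE M21 by Ensembl identifier. Their sequences and lengths came from that annotation, with no protein sequences used.

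All tested genes were fitted in R 4.3.3 with limma 3.58.1 on log2(normalized count + 1), with the genotype alone, eBayes with a trend, two-sided tests and Benjamini-Hochberg adjustment over 16714 genes. Ratios were tested by exact permutation (scipy 1.17.1). The main fit and the permutation test of the ratios did not use the library numbers. For the block, the sign-flip test and the differences at each number, they were taken as pairs. The reason came from these same data: the deviations of same-numbered libraries from their genotype means correlated across genes (0.30, 0.33 and 0.62). TG-1 with WT-2 and TG-2 with WT-1 had 0.27 and 0.23, so the numbers set 3 apart from 1 and 2 more than 1 from 2. The 10 genes, the lists and the named genes (up to 4 of a pathway list by mean value, those of it without overlap, and the 2 most like each subunit) were chosen with earlier results of these data known. The cell type markers named above did not follow this rule, nor did *Gsg1l*, *Cacng5* and *Shisa8*.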

Additional observations from a re-analysis of the deposited data

How the results depend on the processing

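The 10 genes were refitted under 18 alternatives (a pseudocount of 0.1 or 5, genes unfiltered or with a mean of 50 and more, upper quartile scaling, quantile normalization, eBayes without a trend or with the robust option, a replicate block, an empirical null, a term for the libraries numbered 3, each library left out, and both numbered 3 left out), and 0 of them passed the threshold under any. Of 180 fold changes, 173 kept their direction and 7 turned, each of these with a single library left out. Several alternatives cannot change a fold change in this balanced design, so their kept directions were fixed in advance. They are eBayes without a trend or with the robust option, the block, the empirical null and the term for the libraries numbered 3. With a library left out in turn, the direction turned for *Gria1* (-0.0129 without TG-2 and -0.0076 without WT-1), *Gria3* (-0.0424 without TG-3 and -0.0696 without WT-1), *Cnih2* (-0.0163 without WT-2), and *Gria2* and *Cacng2* (0.0412 and 0.0404 without WT-3). The ranges were -0.0129 to 0.0853 for *Gria1*, -0.1326 to 0.0412 for *Gria2*, -0.0696 to 0.1553 for *Gria3*, -0.274 to 0.0404 for *Cacng2* and -0.0163 to 0.191 for *Cnih2*. Without a turn, they were 0.0119 (without TG-3) to 0.16 (WT-3) for *Cnih3*, 0.0235 (TG-3) to 0.1482 (TG-2) for *Cacng3*, 0.0384 (TG-3) to 0.1265 (TG-1) for *Shisa9*, 0.0831 to 0.1452 for *Cacng8* and -0.088 to -0.0352 for *Gria4*. The median of the 10 genes stayed between 0.01 and 0.09. Without both libraries numbered 3, the log2 fold change was 0.0546 for *Cacng8* and 0.0227 for *Cacng3*, against 0.1135 and 0.0887 with all libraries. Over all genes the count of limma calls was 0 (336 genes with an unadjusted p under 0.05), and it was 1, *Shank3*, with upper quartile scaling, the robust option, the replicate block, the term for the libraries numbered 3, without both of them and without WT-3 (0 to 1 with a library left out), and 26 with the empirical null. The replicate block changed no call of the 10 genes. Since each number holds a library of each genotype, the block cannot change their log2 fold changes, and the median stays 0.06 (0.0555). Paired by number, the exact sign-flip test of the 9 ratios could not pass the threshold, since 3 pairs allow no p below 0.25.

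With a library left out, the log2 ratio difference ranged from -0.0049 to 0.1346 for *Gria1* to *Gria2*, from -0.1064 to 0.0481 for *Gria4* to *Gria2*, from -0.0758 to 0.0836 for *Cnih2* to *Cnih3*, from 0.0448 to 0.3659 for *Cacng8* to *Cacng2*, from 0.0475 to 0.2976 for *Cacng3* to *Cacng2*, from 0.0305 to 0.1141 for *Gria3* to *Gria2*, from -0.0617 to -0.0131 for the *Gria2* share, from 0.0094 to 0.0901 for the TARPs to the subunits and from -0.0225 to 0.1874 for the cornichons to the subunits. Without both libraries numbered 3, it was -0.0142 for the TARPs to the subunits, against 0.05 with all libraries. The cause of these turns was not tested.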
